A study of Mus musculus with 24 samples.

Results

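Expression in DMSO-treated ER-Hoxb8 cells carrying P199L-ERG was compared with that in DMSO-treated cells carrying the empty vector (BB), gene by gene. The comparison took in the 4 P199L-ERG and the 4 BB libraries without inhibitor, 8 of the 24 libraries of the series, taken by their labels, and all genes that passed the edgeR filter on low counts, 12963 of 53801. ER-Hoxb8 cells are C57BL/6 mouse myeloid progenitors held in that state by a Hoxb8 protein fused to an estrogen receptor domain, and they mature toward neutrophils once estrogen is removed. All cells were stable lines sorted by GFP after lentiviral transduction, and beta-estradiol had been washed out of every culture before 36 h in DMSO. P199L-ERG cells carried human ERG with the P199L change, leucine in place of a proline, expressed from the human PGK promoter. BB cells carried the vector without ERG. The other libraries held WT-ERG in DMSO, which served as a direct comparison, and the 3 constructs with the HDAC3 inhibitor BRD3308 at 5 µM for 36 h. These are the dose and time of the methods, and the sources used here disagree on both. The 4 replicates of a group were described as independent experiments, and separate transductions were not stated for them. P-values therefore measure the spread between these experiments, and the construct cannot be told apart from other differences between the derived lines.

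ERG is a transcription factor of the ETS family, whose members bind DNA around a GGAA core. It is needed for hematopoietic stem cells and works there beside GATA2, RUNX1, TAL1, LYL1, LMO2 and FLI1, a group often called the heptad. High ERG expression holds myeloid progenitors back from maturation and is found in acute leukemia. The changed proline lies at the end of the pointed (PNT) domain, a protein interaction domain. The NCoR-HDAC3 complex represses genes by removing acetyl groups from histones.

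P199L-ERG libraries held 14455890 to 15864492 counts and BB libraries 12802587 to 15653775. Replicate 4 of P199L-ERG stood apart from the other 3. Its deviations from the group mean correlated with log2 exon length at -0.439 across 9818 genes, against -0.112 to 0.427 in the other 7 libraries, and its counts differed from those of its replicates by a chi-square of 14.1 to 23.8 per degree of freedom, against 2.36 to 5.04 between the other P199L-ERG pairs. Replicate 4 of WT-ERG, used in the direct tests, gave -0.475. Counts over gene lists are given with and without replicate 4 of P199L-ERG where they changed, and without any other library that moved them by over 1.5 times. The progenitor markers Kit (257 to 294 CPM, counts scaled to library size, in P199L-ERG and 272 to 286 in BB) and Cd34 (56 to 61.4 and 57.4 to 69 CPM) were present in all 8 libraries. CPM are scaled by TMM factors throughout.

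Erg itself was at 101, 98.1, 97.2 and 107 CPM in the P199L-ERG libraries and at 98.8, 94.3, 92.5 and 89.2 CPM in the BB libraries. These ranges overlapped, and the difference did not pass (log2 fold change 0.10, SE 0.04, adjusted p = 0.0763, exact two-sided permutation p = 0.0857), although it passed when replicate 1 of BB was left out. Reads of the human ERG transgene that mapped to mouse Erg cannot be separated in counts per gene, so Erg checks the construct only in part. Hoxb8, whose estrogen receptor fusion holds the progenitor state while estrogen is present, was at 765, 712, 729 and 672 CPM with P199L-ERG. In BB it was at 773, 761, 774 and 787 CPM. The difference did not pass (log2 fold change -0.10, SE 0.04, adjusted p = 0.0633), although it passed when replicate 1 of P199L-ERG was left out. Reads of the fusion that mapped to Hoxb8 cannot be separated in counts per gene either.

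Many genes differed and most differed little. Of the 12963 genes tested, 1981 were higher in P199L-ERG than in BB cells (15.3%) and 1671 were lower (12.9%), together 28.2% (edgeR quasi-likelihood test, Benjamini-Hochberg adjusted p under 0.05). Higher, lower and called are used below only of genes past this threshold. The median log2 fold change was 0.26 among the higher genes, -0.27 among the lower genes and 0.02 among all genes tested. Of the called genes, 2787 (76.3%) lay within 0.5 on the log2 scale. Beyond 1 on the log2 scale, 189 genes were higher (1.46%) and 172 lower (1.33%). Of these, 133 and 112 belonged to the 3241 genes of lowest level, and 10 and 8 to the 3241 of highest level. The libraries of the groups did not overlap for 3179 genes (24.5%). In bulk RNA, fewer cells of a type and less of an RNA per cell cannot be told apart, which holds for every result below. Median log2 fold changes per chromosome ran from -0.000485 on chromosome 10 to 0.06 on chromosome 15.

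**Figure D1:**
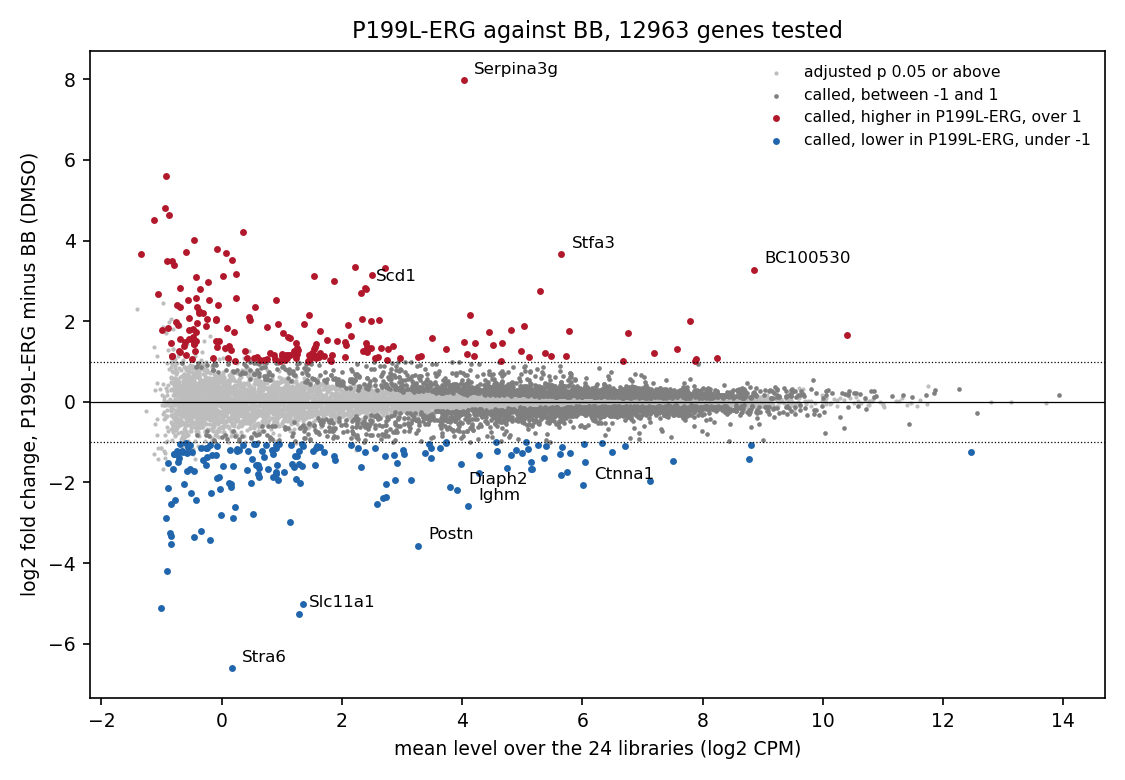
Log2 fold change of P199L-ERG minus BB in DMSO against the mean level of each of the 12963 genes tested (log2 CPM over 24 libraries). Red and blue points are the 189 genes called higher and the 172 called lower beyond 1, most of them at low levels, and dotted lines mark -1 and 1.

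The largest difference was that of Serpina3g, which encodes an intracellular protease inhibitor of the serpin family. Serpina3g (ENSMUSG00000041481, GRCm38 chr12:104236245-104241939, plus strand) was at 19.9, 18.1, 20.6 and 21.3 CPM in the P199L-ERG libraries and at 0.0715, 0, 0.211 and 0 CPM in the BB libraries. It was near 0 in every BB library, with 4 counts in all 4 together against 1193 in P199L-ERG, a ratio of 282 with a 95% interval from 110 to 1040 that covers counting error only (fitted log2 fold change 7.98, SE 0.23, adjusted p = 2.93e-20). WT-ERG cells held more of it, at 30.2, 30.8, 31.8 and 32.6 CPM, and P199L-ERG was lower than WT-ERG in the direct test (log2 fold change -0.65, SE 0.08, adjusted p = 3.4e-06). The 250 bases before its RefSeq start are shown because it had the largest rise of the genes named by level and size. Capitals mark the letters TGTGGT, the core that RUNX factors bind.

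Serpina3g promoter, GRCm38.p6 chr12:104235897-104236146, plus strand: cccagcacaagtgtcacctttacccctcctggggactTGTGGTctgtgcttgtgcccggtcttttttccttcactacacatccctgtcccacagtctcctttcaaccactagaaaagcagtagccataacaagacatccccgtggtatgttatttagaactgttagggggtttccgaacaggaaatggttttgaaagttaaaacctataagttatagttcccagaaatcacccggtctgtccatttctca

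Scd1, the stearoyl-CoA desaturase that makes monounsaturated fatty acids, was at 8.3, 8.16, 9.12 and 7.42 CPM with P199L-ERG and at 1.36, 0.698, 1.41 and 1.18 CPM in BB (log2 fold change 2.83, SE 0.17, adjusted p = 2.35e-13). Arap2, a GTPase-activating protein for ARF proteins, was at 4.89, 6.4, 5.36 and 5.42 CPM and 0.572, 0.952, 0.352 and 0.552 CPM (log2 fold change 3.14, SE 0.19, adjusted p = 1.54e-13). Both genes were chosen among those whose P199L-ERG and BB libraries did not overlap, so their separation was set by the choice. WT-ERG cells held Scd1 at 9.89, 9.16, 8.68 and 8.26 CPM, which did not differ from P199L-ERG in the direct test (log2 fold change -0.13, SE 0.11, adjusted p = 0.649), and Arap2 at 9.47, 9.46, 10.3 and 9.15 CPM, above P199L-ERG (log2 fold change -0.80, SE 0.11, adjusted p = 9.2e-06).

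Most other genes with the largest rises, among those named by fold with a mean level of 2 or more in log2 CPM, stood next to each other. Stefins of the A type are small inhibitors of cysteine proteases such as cathepsins, and mice carry a cluster of closely related copies on chromosome 16. A run of 9 neighbouring tested genes of this cluster (GRCm38 chr16:36184212-36455392) was higher beyond 1 in P199L-ERG cells, the longest such run in the genome. Elsewhere 301 genes beyond 1 stood alone, 21 runs had 2 genes and 3 runs had 3. Stfa1 was at 1130, 1260, 1440 and 1860 CPM in P199L-ERG and at 393, 409, 497 and 501 CPM in BB (log2 fold change 1.66, SE 0.12, adjusted p = 2.63e-11). BC100530 was at 364, 422, 459 and 658 CPM against 40, 42.4, 57.7 and 56.3 CPM (log2 fold change 3.28, SE 0.16, adjusted p = 1.99e-15). Replicate 4 was the highest of the P199L-ERG libraries for both genes, and every P199L-ERG library exceeded every BB library, which the choice of BC100530 required.

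Stfa3 was at 9.07, 11.1, 14.8 and 21.2 CPM with P199L-ERG and at 0.572, 1.46, 1.06 and 1.26 CPM in BB (log2 fold change 3.66, SE 0.33, adjusted p = 1.77e-09). BC117090 was at 4.31, 5.08, 5.64 and 7.06 and 0.572, 0.381, 0.704 and 0.473 CPM (log2 fold change 3.35, SE 0.25, adjusted p = 2.19e-11), and Stfa2 at 2.77, 3.39, 3.97 and 4.85 and 0.286, 0.444, 0.774 and 0.631 CPM (log2 fold change 2.79, SE 0.30, adjusted p = 3.2e-08). The further members were Gm5416 (2.75, SE 0.21), 2010005H15Rik (2.15, SE 0.22), Gm5483 (1.21, SE 0.17) and Gm15845 (3.31, SE 0.24), an antisense transcript that overlaps exons of BC100530, from which its reads cannot be told apart without strand. These copies share long stretches of sequence, so the division of reads among them is uncertain. The fitted level of all 9 was higher still in WT-ERG cells. The direct test called 7 of them lower in P199L-ERG than in WT-ERG, against 2.45% of all genes. Because the copies share sequence, these 7 calls cannot be counted as separate results. Gm5416 (log2 fold change -1.37, SE 0.13, adjusted p = 2.2e-08) had the smallest p. Gm5483 (log2 fold change -0.56, SE 0.16, adjusted p = 0.0407) passed by the least, and Stfa1 (log2 fold change -0.33, SE 0.12, adjusted p = 0.14) and 2010005H15Rik (log2 fold change -0.43, SE 0.16, adjusted p = 0.153) did not pass.

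**Figure D2:**
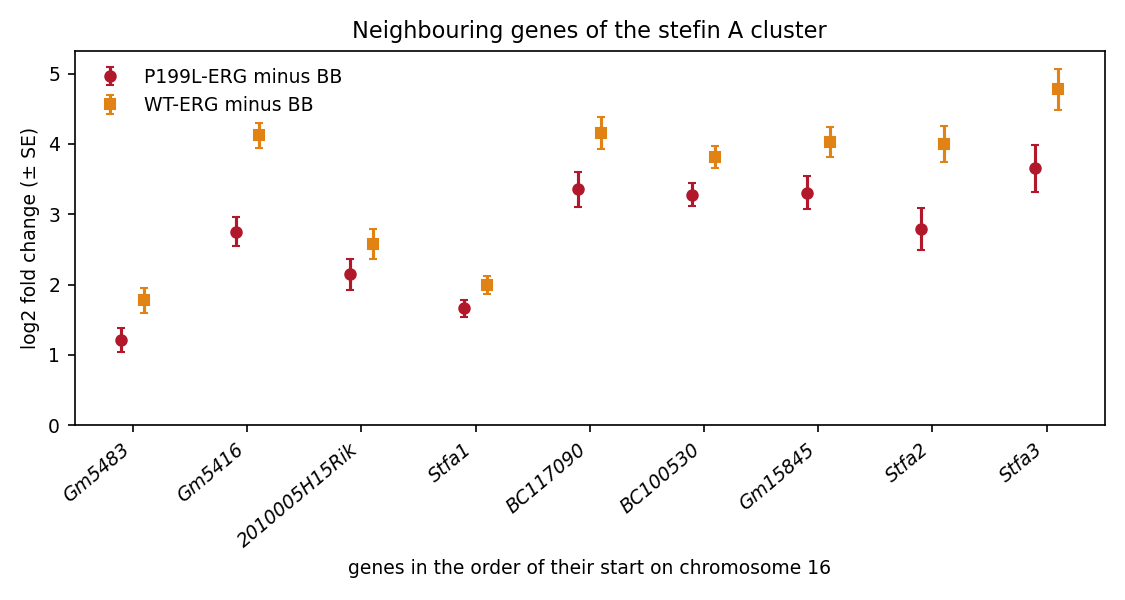
Log2 fold changes with SE of the 9 neighbouring genes of the stefin A cluster, in the order of their starts on chromosome 16, for P199L-ERG minus BB (circles) and WT-ERG minus BB (squares). Both comparisons use the same BB libraries, and each square lies above its circle.

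The copies share a stretch close to their starts. Promoters of 6 of the 9 genes were held in the RefSeq table, besides that of Stfa2l1, a neighbouring copy that was not called in P199L-ERG (log2 fold change 0.35, SE 0.21, adjusted p = 0.216) and passed in WT-ERG against BB (0.88, SE 0.20, adjusted p = 0.00101). The 80 bases before each start are given below, chosen after the values were seen, with capitals for the longest run of letters that most of them share. This run of 13 bases, ACCTTTAAAACCC, lay in 6 of the 7 windows. In the 250 bases before the starts of 27025 genes it occurred, on either strand, in 8, all of them on chromosome 16 and 5 of them in the run of 9. A shared run among duplicated genes is a description of their sequence, and its part in the rise was not tested.

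Stfa1, chr16:36277068-36277147, plus strand: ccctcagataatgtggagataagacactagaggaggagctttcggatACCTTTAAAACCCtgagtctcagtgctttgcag
Stfa2, chr16:36408364-36408443, minus strand: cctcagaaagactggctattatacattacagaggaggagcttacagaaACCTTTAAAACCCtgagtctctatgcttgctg
Stfa3, chr16:36455393-36455472, minus strand: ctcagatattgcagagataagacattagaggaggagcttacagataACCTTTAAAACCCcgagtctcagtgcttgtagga
Gm5483, chr16:36184132-36184211, plus strand: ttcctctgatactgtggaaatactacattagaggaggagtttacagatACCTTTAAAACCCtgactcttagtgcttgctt
Gm5416, chr16:36210323-36210402, plus strand: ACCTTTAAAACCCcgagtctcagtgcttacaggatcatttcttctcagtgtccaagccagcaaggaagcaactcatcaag
2010005H15Rik, chr16:36221482-36221561, plus strand: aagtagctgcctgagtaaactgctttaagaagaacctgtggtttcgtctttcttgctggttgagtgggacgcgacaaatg
Stfa2l1, chr16:36156731-36156810, plus strand: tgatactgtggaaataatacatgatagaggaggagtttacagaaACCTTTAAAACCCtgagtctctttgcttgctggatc

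With the same limit on level, the largest fall was that of Postn. Postn, which encodes the matrix protein periostin (ENSMUSG00000027750, GRCm38 chromosome 3), was at 0.901, 1.13, 1.46 and 0.927 CPM in the P199L-ERG libraries and at 14.2, 12.8, 11.5 and 14.4 CPM in the BB libraries (log2 fold change -3.57, SE 0.16, adjusted p = 4.21e-16). Ighm, the constant region of the immunoglobulin M heavy chain, was at 9.78, 9.41, 10.3 and 9.34 CPM against 55.8, 57.8, 57.2 and 63.8 CPM (log2 fold change -2.59, SE 0.08, adjusted p = 3.44e-20). Ctnna1, alpha-catenin, which ties cadherins to actin, was at 26.7, 29.4, 25.5 and 28.2 CPM against 111, 110, 117 and 121 CPM (log2 fold change -2.06, SE 0.05, adjusted p = 3.54e-21). All 3 genes were chosen among those whose P199L-ERG and BB libraries did not overlap. In WT-ERG cells they were at 1.26, 2.06, 1.43 and 2.1, at 9.12, 11, 11.2 and 12.9 and at 24, 24.4, 25.2 and 24.5 CPM, and none of the 3 differed between the ERG constructs (direct log2 fold changes -0.63, -0.18 and 0.16, adjusted p 0.164, 0.332 and 0.167).

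Chn2, a GTPase-activating protein for RAC, was at 1.22, 1.13, 1.74 and 1.71 CPM with P199L-ERG and at 8.08, 8.25, 9.15 and 8.2 CPM in BB (log2 fold change -2.54, SE 0.15, adjusted p = 1.54e-13). The lower genes also included 4933440M02Rik (-2.39, SE 0.13), the X-linked Bex3 (-2.35, SE 0.16), the formin Diaph2 (-2.19, SE 0.09) and the lysophospholipid acyltransferase Mboat1 (-2.11, SE 0.08). Bex3, Diaph2 and Mboat1 were lower in P199L-ERG than in WT-ERG as well (log2 fold change -1.07, SE 0.19, adjusted p = 0.000435; log2 fold change -0.90, SE 0.10, adjusted p = 1.09e-06; log2 fold change -0.50, SE 0.10, adjusted p = 0.00169). Their WT-ERG levels, 2.11, 2.61, 3.04 and 3.24 CPM for Bex3, 10.9, 12.3, 10.7 and 12.3 CPM for Diaph2 and 7.93, 6.19, 7.19 and 6.23 CPM for Mboat1, lay between the other groups.

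**Figure D3:**
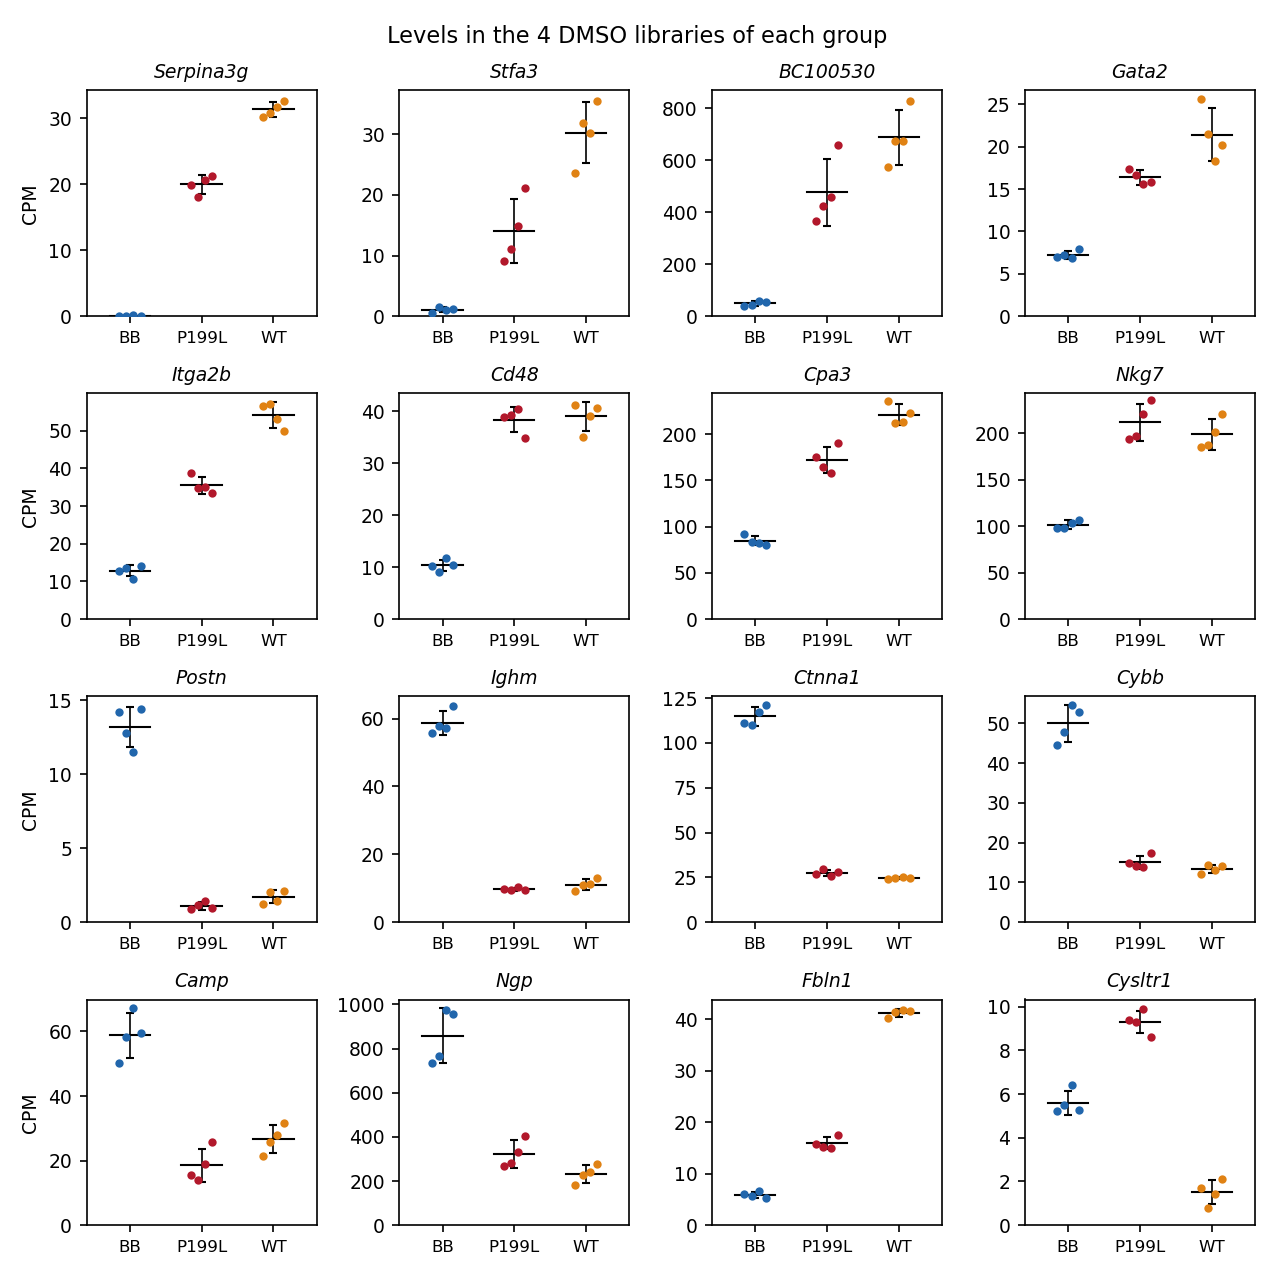
CPM of 16 genes in the 4 DMSO libraries of BB, P199L-ERG and WT-ERG, each panel on its own linear axis from 0, with the mean as a line and the SD as a bar. BB and P199L-ERG points are apart in every panel, which the choice of Serpina3g, Stfa3, BC100530, Postn, Ighm and Ctnna1 required. WT-ERG lies above both for Fbln1 and below both for Cysltr1.

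The sequences before the starts of the genes with the largest changes that the RefSeq table holds were searched for 4 patterns on both strands: CCGGAA and AGGAAG, letters around the ETS core, AGATAA, bound by GATA factors, and TGTGGT, bound by RUNX factors. Both ETS patterns hold GGAA but differ in the base before it, so that a single core matches no more than 1 of them. In the 250 bases before the start, Stfa3 held AGGAAG once, AGATAA at 66 and 39 bases before the start, and TGTGGT on the other strand. Postn and Chn2 held none of the 4, and are shown without capitals beside Stfa3. Chn2 has several annotated starts in the table, and the one nearest to the GENCODE gene start was taken.

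Stfa3, GRCm38.p6 chr16:36455393-36455642, minus strand: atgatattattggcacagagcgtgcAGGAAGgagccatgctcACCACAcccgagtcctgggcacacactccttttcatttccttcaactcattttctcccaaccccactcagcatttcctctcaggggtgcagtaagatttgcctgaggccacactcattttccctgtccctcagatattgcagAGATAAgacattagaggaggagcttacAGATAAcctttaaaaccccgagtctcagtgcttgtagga
Postn, GRCm38.p6 chr3:54360857-54361106, plus strand: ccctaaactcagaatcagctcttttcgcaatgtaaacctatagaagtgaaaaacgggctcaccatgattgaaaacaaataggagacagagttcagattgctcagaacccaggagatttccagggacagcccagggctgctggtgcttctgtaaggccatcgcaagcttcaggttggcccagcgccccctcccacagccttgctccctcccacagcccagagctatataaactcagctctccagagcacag
Chn2, GRCm38.p6 chr6:54039682-54039931, plus strand: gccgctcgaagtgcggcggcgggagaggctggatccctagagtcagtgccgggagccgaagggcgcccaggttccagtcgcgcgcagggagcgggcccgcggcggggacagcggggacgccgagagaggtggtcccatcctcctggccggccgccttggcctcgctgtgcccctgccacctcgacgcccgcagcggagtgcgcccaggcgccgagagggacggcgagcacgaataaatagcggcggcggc

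Among promoters of the genes higher beyond 1, 131 could be read, as could 132 of the lower genes and 9420 of all genes tested. AGATAA lay in 17.6% of the higher, 8.33% of the lower and 5.91% of all of them. CCGGAA lay in 6.87%, 12.9% and 23.9%, AGGAAG in 35.1%, 40.2% and 28.7%, and TGTGGT in 19.1%, 22.7% and 11%. Over all 32536 promoters of the table the shares were 9.97% for AGATAA, 12.1% for CCGGAA, 29.6% for AGGAAG and 14% for TGTGGT. Genes beyond 1 were mostly of low level, and their promoters had a median GC content of 55.6% (higher) and 55.8% (lower) against 59.6% for all genes tested, so these shares are a description with no test.

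Some genes were nearly silent in a single group. Stra6, the cell surface receptor for retinol-binding protein, was at 2.5, 2.22, 2.67 and 2.44 CPM in BB and had a single count in all 4 P199L-ERG libraries together, against 139 in BB, which gives a ratio of 147 (95% counting interval 25.9 to 5850). Slc11a1, a metal transporter of phagosomes, was at 0.787, 0.952, 0.915 and 1.18 CPM in BB and had 1 count in P199L-ERG against 54 (ratio 57.1, 9.82 to 2300). Both were also at or near 0 in WT-ERG cells, with 0, 0, 0.062 and 0 CPM and 0.211, 0.0607, 0.248 and 0.081 CPM. Thbs1, which encodes the matrix protein thrombospondin 1, was at 1730, 1970, 2040 and 1810 CPM with P199L-ERG and at 4020, 4370, 4800 and 4770 CPM in BB (log2 fold change -1.25, SE 0.06, adjusted p = 8.27e-16). It stood in a run of 3 lower genes on chromosome 2 with Gm29233 and Gm13986, of which Gm29233 overlaps Thbs1. The other runs of 3 held few counts: Ppp3cc, Slc39a14 and Piwil2 on chromosome 14, all higher and under 1 CPM in all 8 libraries, and Pdgfa, 6330403L08Rik and Prkar1b on chromosome 5, all lower. The call for 6330403L08Rik was lost without replicate 1 or 2 of BB or replicate 1 or 4 of P199L-ERG. Pdgfa and 6330403L08Rik overlap each other, and their P199L-ERG and BB libraries overlap in level.

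Stem and progenitor genes were mostly higher. Of 16 tested members, 10 were higher and 2 lower, against 15.3% and 12.9% of all genes, with a median log2 fold change of 0.32, and the counts were the same without replicate 4 of P199L-ERG. The summed level of the progenitor markers Kit, Cd34, Gata2 and Hoxb8 overlapped, at 1000 to 1140 CPM in P199L-ERG and 1100 to 1140 CPM in BB. Gata2, a factor of stem cells and mast cell precursors, was at 17.4, 16.7, 15.6 and 15.8 CPM in the P199L-ERG libraries and at 7.01, 7.24, 6.83 and 7.88 CPM in BB (log2 fold change 1.18, SE 0.10, adjusted p = 7.15e-10, exact permutation p = 0.0286, the smallest that 4 against 4 libraries allow). Every P199L-ERG library lay above every BB library, and below every WT-ERG library, at 25.7, 21.5, 18.3 and 20.2 CPM (P199L-ERG minus WT-ERG log2 fold change -0.38, SE 0.09, adjusted p = 0.00682). Cd48, a surface receptor that separates progenitors from the earliest stem cells, was at 38.9, 39.2, 40.4 and 34.9 CPM against 10.2, 9.08, 11.7 and 10.5 CPM (log2 fold change 1.89, SE 0.08, adjusted p = 2.69e-17). The Polycomb gene Bmi1 (0.37, SE 0.04) and Lmo2 (0.53, SE 0.03) were higher by less, whereas Prom1, which encodes CD133 (-1.54, SE 0.09), and Hlf (-0.24, SE 0.05), a factor of stem cells, were lower. In the direct test 5 of the 16 were lower in P199L-ERG than in WT-ERG and none higher (background 2.45% and 2.23%), but 3 were lower without replicate 1 of WT-ERG and 1 with the groups compared alone.

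Of the 7 heptad factors, Gata2 and Lmo2 were higher and Fli1 was lower. Fli1 was at 129, 130, 130 and 102 CPM with P199L-ERG and at 136, 131, 143 and 137 CPM in BB (log2 fold change -0.15, SE 0.05, adjusted p = 0.0281), and it no longer passed without replicate 4, the lowest library (adjusted p = 0.0979), or without replicate 3 or 4 of BB. Lmo2 was at 196, 198, 206 and 197 CPM against 143, 134, 138 and 137 CPM (log2 fold change 0.53, SE 0.03, adjusted p = 1.72e-12). Of 17 ETS family factors 3 were higher and 5 lower, against 15.3% and 12.9% of all genes. The counts were 4 and 3 without replicate 4 of P199L-ERG, and 2 were lower without replicate 3 or replicate 4 of BB. Ets1, best known in lymphocytes, was at 0.836, 0.627, 0.557 and 0.642 CPM against 2.93, 2.41, 2.25 and 2.29 CPM (log2 fold change -1.87, SE 0.26, adjusted p = 2.04e-06). Etv5 was at 2.38, 2.51, 2.23 and 1.64 against 1.22, 1.08, 1.06 and 0.867 CPM (log2 fold change 1.05, SE 0.20, adjusted p = 0.000243). Spi1, which encodes PU.1, the master factor of myeloid cells, was lower at 519, 537, 560 and 557 against 555, 582, 614 and 637 CPM, though the ranges overlap (log2 fold change -0.14, SE 0.05, adjusted p = 0.0246). Its call was lost without replicate 3 or 4 of BB or replicate 1 or 2 of P199L-ERG, with adjusted p from 0.052 to 0.114.

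Among 17 myeloid transcription factors, 3 were higher and 4 lower, against 15.3% and 12.9% of all genes. The lower were 3 without replicate 4 of P199L-ERG and 2 without replicate 3 or replicate 4 of BB. Cebpa, the factor that starts granulocyte differentiation, was at 482, 482, 485 and 453 CPM with P199L-ERG and at 352, 362, 376 and 382 CPM in BB (log2 fold change 0.37, SE 0.03, adjusted p = 5.5e-10). Cebpe (0.16, SE 0.04), which acts at the secondary granule stage, was higher by less. Zeb2 (-0.33, SE 0.04), Rara, the retinoic acid receptor alpha (-1.09, SE 0.24), Ikzf1 (-0.12, SE 0.04) and Spi1 were lower, and Ikzf1 lost its call without replicate 4 (adjusted p = 0.0933) or without replicate 3 or 4 of BB.

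Co-repressor genes of the NCoR-HDAC3 type and class I HDAC genes differed little. Of 12, 3 were higher and 2 lower (2 and 3 without replicate 4), against 15.3% and 12.9% of all genes, with a median of 0.06. Hdac3 was at 96.8, 95.4, 97.4 and 110 CPM against 90.5, 88.5, 91.8 and 89.4 CPM (log2 fold change 0.15, SE 0.04, adjusted p = 0.00937), with replicate 4 the highest, and Hdac2 was higher by 0.18 (SE 0.06), but not without replicate 4 (adjusted p = 0.123) or replicate 3 or 4 of BB. The co-repressor Ncor1 was at 425, 415, 395 and 359 and 423, 417, 427 and 428 CPM and did not pass (log2 fold change -0.09, SE 0.05, adjusted p = 0.229). Cbfa2t3, a co-repressor of the ETO family, was higher (0.34, SE 0.07). None of the 12 differed between P199L-ERG and WT-ERG, where 4.67% of all genes did, so few calls are to be expected among 12.

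Primary granules, laid down in promyelocytes, hold enzymes such as myeloperoxidase, and secondary and tertiary granules, laid down later, hold antimicrobial proteins and proteases. Of 12 genes on the primary granule list, 6 were higher and 0 lower, against 15.3% and 12.9% of all genes. Their median was 0.13 and the counts were the same without replicate 4. Nkg7 was at 194, 197, 221 and 236 CPM with P199L-ERG and at 98.1, 97.8, 104 and 107 CPM in BB (log2 fold change 1.06, SE 0.06, adjusted p = 1.71e-14). Cst7, an inhibitor of cysteine proteases, was at 471, 482, 494 and 576 CPM against 361, 363, 367 and 378 CPM (log2 fold change 0.46, SE 0.05, adjusted p = 6.14e-09). The granule enzymes cathepsin G, Ctsg (0.29, SE 0.04), and myeloperoxidase, Mpo (0.17, SE 0.04), rose less than Nkg7 and Cst7.

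Of 16 secondary and tertiary granule genes, 9 were lower and 4 higher, against 12.9% and 15.3% of all genes. Their median was -0.47 and the counts were the same without replicate 4. The difference between the granule lists was not tested. Camp, the cathelicidin precursor, was at 15.6, 14, 18.9 and 25.7 CPM with P199L-ERG and at 50.1, 58.3, 67.2 and 59.4 CPM in BB (log2 fold change -1.67, SE 0.14, adjusted p = 1.32e-10). Ngp, the neutrophilic granule protein, was at 269, 280, 332 and 406 CPM against 733, 768, 973 and 956 CPM (log2 fold change -1.42, SE 0.12, adjusted p = 2.02e-10). In both genes replicate 4 was the highest P199L-ERG library and still lay below every BB library. Chil3 (-1.26, SE 0.11) and Olfm4 (-2.04, SE 0.22) were lower as well, whereas the metalloprotease Adam8 (1.14, SE 0.12) and Lrg1 (0.29, SE 0.07) were higher. Against WT-ERG, 3 of the 16 were higher in P199L-ERG and 6 lower, against 2.23% and 2.45% of all genes, and 3 were lower with the groups compared alone. Chil3 was among the higher ones (log2 fold change 1.03, SE 0.13, adjusted p = 2.96e-06), with WT-ERG at 10.8, 12.6, 10.8 and 13.8 CPM, P199L-ERG at 24.7, 20.8, 24.5 and 27.9 CPM and BB at 54.5, 46.8, 71.8 and 61.9 CPM. Adam8 was among the lower ones (log2 fold change -1.02, SE 0.10, adjusted p = 2.32e-08), with 40.6, 48, 37.1 and 34.7, 20.5, 20.8, 21.4 and 16.4 and 7.22, 9.71, 10.8 and 8.12 CPM in the same order. In both genes P199L-ERG lay between the other groups.

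Among 23 mature neutrophil genes, 7 were higher and 3 lower, against 15.3% and 12.9% of all genes (6 and 4 without replicate 4). The G-CSF receptor Csf3r was at 210, 213, 217 and 206 CPM with P199L-ERG and at 158, 174, 165 and 161 CPM in BB (log2 fold change 0.36, SE 0.04, adjusted p = 5.22e-08), and the chemokine receptor Cxcr2 (0.31, SE 0.07) and the decoy receptor Il1r2 (0.54, SE 0.10) were higher too. The beta 2 integrin Itgb2 was at 307, 316, 334 and 276 CPM against 458, 467, 499 and 485 CPM (log2 fold change -0.63, SE 0.04, adjusted p = 1.2e-12), and its partner Itgam, which encodes CD11b (-0.33, SE 0.04), was lower by less. Stfa2 of the stefin cluster also belongs to this list. Of 23, 6 were lower and 1 higher in P199L-ERG than in WT-ERG, against 2.45% and 2.23% of all genes. Without replicate 4 of P199L-ERG 8 were lower, and 0 were higher without it, without replicate 2 of P199L-ERG or without replicate 1, 2 or 3 of WT-ERG.

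The NADPH oxidase makes the superoxide of phagocytes. All 6 subunits had negative log2 fold changes and 4 passed, against 12.9% of all genes lower, but 2 passed without replicate 3 of BB or replicate 2 of P199L-ERG. Cybb, the catalytic subunit gp91phox, was at 14.8, 14.1, 13.9 and 17.3 CPM in the P199L-ERG libraries and at 44.6, 47.9, 54.6 and 52.7 CPM in BB (log2 fold change -1.73, SE 0.08, adjusted p = 4.71e-16). The other called subunits moved less, with Ncf4 at -0.14, SE 0.04, Ncf1 at -0.09, SE 0.03 and Cyba at -0.17, SE 0.07. Ncf1 lost its call without replicate 4 (adjusted p = 0.0596), replicate 2 of P199L-ERG or replicate 1 or 3 of BB, and Cyba was the closest to the threshold (adjusted p = 0.0498), with ranges of 263, 285, 311 and 368 and 338, 348, 350 and 344 CPM that overlap, and it kept its call in no fit without a library other than replicate 4 of P199L-ERG. None of the 6 differed between P199L-ERG and WT-ERG, where 4.67% of all genes did, so few calls are to be expected among 6.

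Of 21 monocyte and macrophage genes, 11 were lower and 6 higher (10 and 6 without replicate 4), against 12.9% and 15.3% of all genes. Their median was -0.28. F13a1, a coagulation factor subunit made by monocytes, was at 276, 279, 273 and 242 CPM with P199L-ERG and at 514, 513, 536 and 510 CPM in BB (log2 fold change -0.95, SE 0.04, adjusted p = 1.54e-17). Adgre1, which encodes F4/80, was at 19.8, 20.3, 20.8 and 17.8 against 39.8, 37.8, 41 and 37.9 CPM (log2 fold change -0.99, SE 0.05, adjusted p = 2.16e-14), and Ly6c2 at 549, 586, 647 and 654 against 982, 981, 1100 and 1130 CPM (log2 fold change -0.78, SE 0.06, adjusted p = 2.08e-10). The macrophage perforin Mpeg1 was lower (-0.81, SE 0.05), as was cathepsin S, Ctss, with the largest fold of the list (-3.42, SE 0.78) at a mean of 0.429 CPM in BB and 0.0331 CPM with P199L-ERG. Ccr2, the receptor that brings monocytes out of the marrow, moved the other way, at 85.8, 93.1, 82.4 and 82.2 CPM against 32.8, 35.5, 35.5 and 34.8 CPM (log2 fold change 1.31, SE 0.05, adjusted p = 1.77e-17), and Fcgr1 (0.63, SE 0.12) was higher. Over 7 defining monocyte markers, the summed level was 1110 to 1210 CPM in P199L-ERG and 1830 to 2000 CPM in BB, and over 8 neutrophil markers it was 2790 to 3750 and 3650 to 4510 CPM.

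Of 20 pattern recognition receptors and adaptors, 6 were lower and 1 higher, against 12.9% and 15.3% of all genes, with a median of -0.13. The counts were 5 and 3 without replicate 4 of P199L-ERG, and 3 were lower without replicate 3 of BB. Nlrp3, the inflammasome sensor, was at 6.56, 7.66, 8.7 and 11.1 CPM with P199L-ERG and at 12.9, 19.3, 23.2 and 23.7 CPM in BB (log2 fold change -1.22, SE 0.23, adjusted p = 0.000198). Tlr7 (-0.55, SE 0.09) and Tlr2 (-0.44, SE 0.08) were lower, and Nod1 (0.26, SE 0.07) was higher. Of 16 cytokines and chemokines, 5 were lower and 2 higher, against the same shares of all genes. The lower were 3 without replicate 3 or 4 of BB or replicate 1 or 2 of P199L-ERG. There was 1 higher without replicate 1 of BB or replicate 1 of P199L-ERG, where Cxcl10 lost its call. Csf1, the growth factor of macrophages, was at 7.21, 9.48, 8.49 and 6.35 against 10.9, 12.8, 11.2 and 8.91 CPM (log2 fold change -0.48, SE 0.11, adjusted p = 0.00139), and Il18 was under 1 CPM in all libraries (-1.80, SE 0.40), whereas Ccl9 (0.27, SE 0.05) and Cxcl10 (0.51, SE 0.16) were higher.

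Among 24 growth factor and cytokine receptors, 5 were higher and 6 lower (5 and 5 without replicate 4), against 15.3% and 12.9% of all genes. Csf2rb2, the beta chain of the IL-3 receptor, was at 43, 42.2, 43.1 and 41.1 CPM with P199L-ERG and at 63.5, 66.8, 73 and 67.8 CPM in BB (log2 fold change -0.68, SE 0.05, adjusted p = 4.49e-12). The IL-6 receptor Il6ra was at 14.9, 14.1, 14.2 and 16.5 against 29.4, 31.4, 32.1 and 26.6 CPM (log2 fold change -1.01, SE 0.07, adjusted p = 4.99e-12). Its signalling partner Il6st, gp130, was higher, with 47 counts in the P199L-ERG libraries and 3 in BB (ratio 14.8, 95% counting interval 4.77 to 74.4), and lay between 0 and 1.09 CPM in these libraries. The M-CSF receptor Csf1r (-0.56, SE 0.07) and Il17ra (-0.49, SE 0.05) were lower.

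Of 9 tested mast cell and basophil genes 6 were higher and 1 lower (5 and 1 without replicate 4), against 15.3% and 12.9% of all genes, with a median of 0.76. With the groups compared alone 3 were higher. Cpa3, the mast cell carboxypeptidase, was at 175, 164, 158 and 190 CPM with P199L-ERG and at 91.7, 83.9, 82.7 and 80.1 CPM in BB (log2 fold change 1.02, SE 0.06, adjusted p = 8.55e-14). Mcpt8, a basophil protease, was at 47, 48.1, 51 and 62.7 against 32.1, 28.8, 31.2 and 31.1 CPM (log2 fold change 0.76, SE 0.07, adjusted p = 3.46e-09). Every P199L-ERG library of both genes lay above every BB library. Hdc, which makes histamine, was lower (-0.32, SE 0.05), and Fcer1a, the chain that defines the IgE receptor, had 0 counts in all 8 libraries. The summed level of 5 defining markers was 215 to 261 CPM in P199L-ERG and 117 to 130 CPM in BB. Most of this sum was Cpa3 and Mcpt8. Ms4a2 overlapped, at 6.81 to 9.03 CPM in P199L-ERG and 5.99 to 7.42 CPM in BB, and Prss34 was under 1 CPM in all 8 libraries. Against WT-ERG, 4 of the 9 were lower in P199L-ERG and none higher (2 lower with the groups compared alone), against 2.45% and 2.23% of all genes. Cpa3 (log2 fold change -0.36, SE 0.06, adjusted p = 7.86e-05) and Mcpt8 (log2 fold change -0.38, SE 0.07, adjusted p = 0.000528) were among the lower ones.

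Genes known from other lineages differed too. Counts over their lists stand against 15.3% of all genes higher and 12.9% lower. Itga2b, the CD41 integrin of megakaryocytes and early progenitors, was at 38.7, 34.7, 35.2 and 33.4 CPM with P199L-ERG, at 12.9, 13.6, 10.7 and 14.1 CPM in BB and at 56.6, 57.1, 53.1 and 49.9 CPM with WT-ERG (log2 fold change 1.47, SE 0.08, adjusted p = 2.33e-14 against BB; log2 fold change -0.61, SE 0.07, adjusted p = 4.46e-07 against WT-ERG). It was the single higher gene among 10 tested megakaryocyte and erythroid genes, of which 3 were lower, among them Gp9 (-0.75, SE 0.17) and Car2 (-0.24, SE 0.07), with 1 lower without replicate 3 of BB, where Car2 lost its call. Hemoglobin genes Hbb-bt and Hba-a1 had no count in any of the 8 libraries. Of 7 B lymphocyte genes, 3 were lower and 1 higher. Without replicate 4 of P199L-ERG 4 were lower, and 0 were higher without it, without replicate 2 or 3 of P199L-ERG or without replicate 2, 3 or 4 of BB. The surrogate light chain Igll1 was at 44.9, 46.9, 47.5 and 55.2 against 96.8, 93.1, 104 and 103 CPM (log2 fold change -1.03, SE 0.07, adjusted p = 1.53e-12), and the summed B cell markers were at 32.8 to 35.6 CPM in P199L-ERG and 84 to 94.6 CPM in BB, with Pax5 at or near 0. Of 4 T and NK genes 3 were higher, Thy1 the most, at 31.3, 30.1, 28.2 and 26 against 8.87, 8.19, 10.2 and 8.36 CPM (log2 fold change 1.70, SE 0.08, adjusted p = 2.37e-15), while Cd3g, Ncr1 and Klrd1 had no counts. Of 5 dendritic cell genes 3 were higher, with Itgax and Flt3 under 2 CPM in all 8 libraries, and of 3 eosinophil genes 2 were lower and 1 higher (1 and 1 without replicate 4 or 1 of P199L-ERG or replicate 3 of BB), with Epx at 0. Of 3 stromal and epithelial markers, Pecam1, which leukocytes also express, was higher (0.94, SE 0.05). The part of admixed cells of these types in the differences was not tested.

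**Figure D4:**
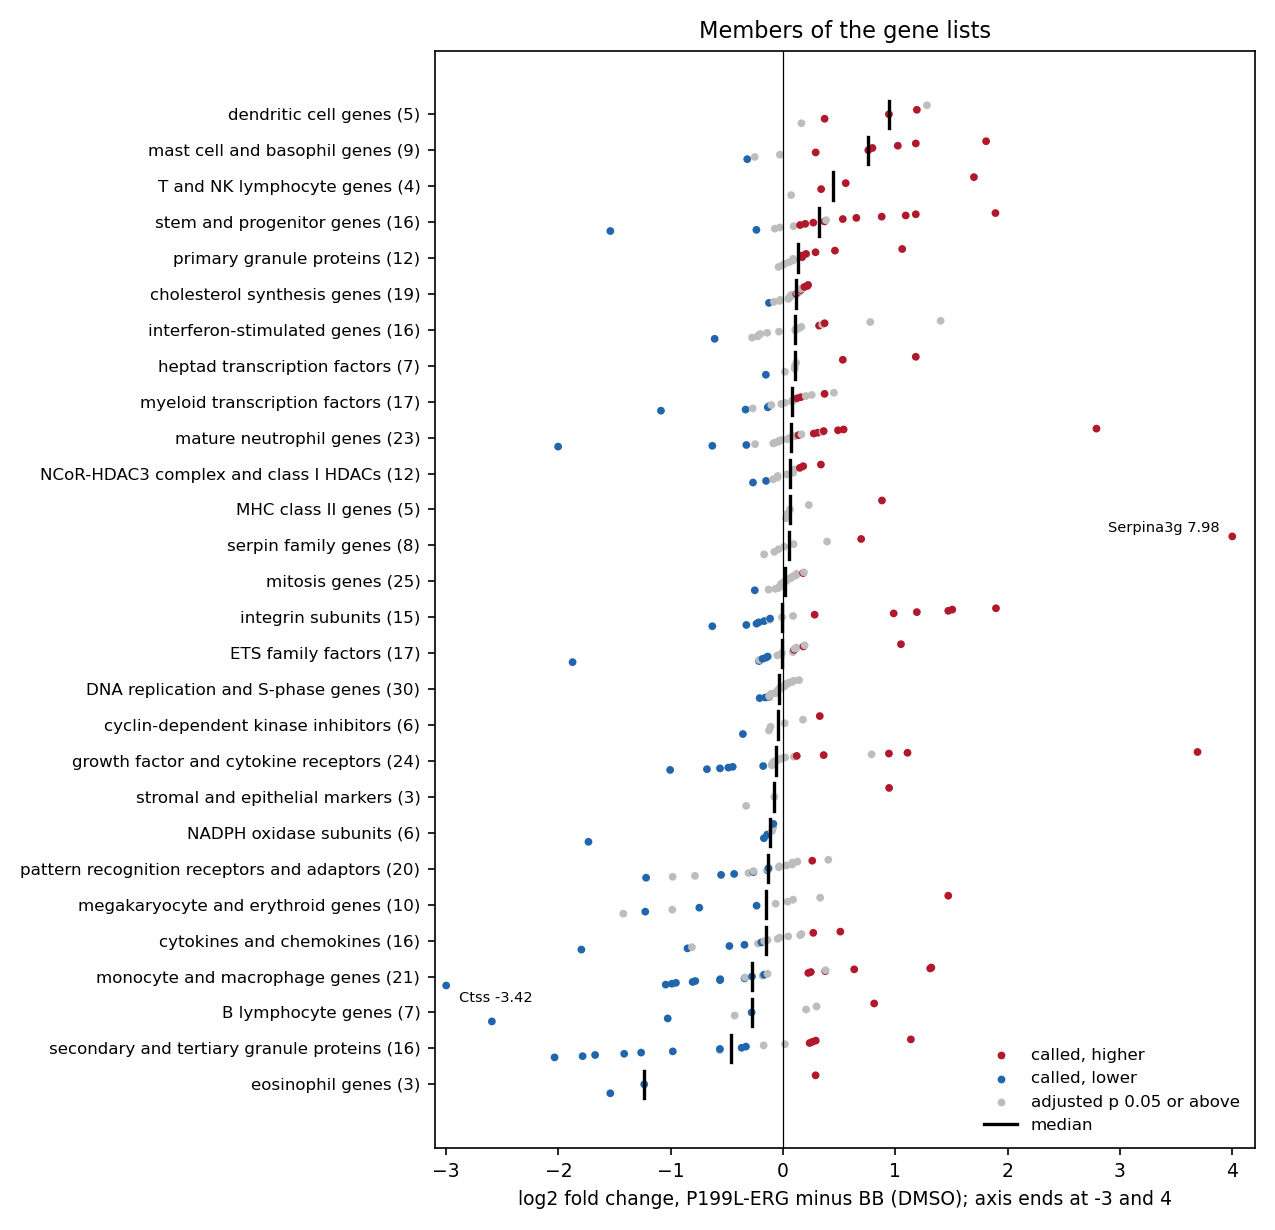
Log2 fold change of P199L-ERG minus BB for each tested member of 28 gene lists, ordered by the median of the list (black bar), with the number tested in parentheses. Red points were called higher, blue points lower and grey points did not pass; Serpina3g (7.98) and Ctss (-3.42) lie beyond the axis and are drawn at its ends.

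Integrin subunits, which carry adhesion to matrix and to other cells, moved in either direction. Of 15, 6 were higher and 6 lower (6 and 4 without replicate 4), against 15.3% and 12.9% of all genes. Itga1, which binds collagen, was at 5.21, 3.76, 3.48 and 4.14 CPM with P199L-ERG, at 0.644, 1.71, 0.915 and 1.1 CPM in BB and at 0.561, 0.546, 0.558 and 0.486 CPM with WT-ERG, so that P199L-ERG libraries lay above both other groups (log2 fold change 1.90, SE 0.20, adjusted p = 2.12e-08 against BB; log2 fold change 2.92, SE 0.23, adjusted p = 6.76e-10 against WT-ERG). Itgb7 (0.98, SE 0.17) and the laminin receptor subunit Itga6 (0.28, SE 0.05) were also higher than in BB. Of 8 serpins, Serpina3g and Serpinb10 (0.70, SE 0.06) were higher and 0 lower. Of 16 interferon-stimulated genes 2 were higher and 1 lower (3 and 1 without replicate 4, and 2 lower without replicate 1 of P199L-ERG), Ifit2 (-0.61, SE 0.09) being the lower gene, and of 5 MHC class II genes H2-Ob (0.88, SE 0.29) was higher (0 without replicate 3 or 4 of P199L-ERG or replicate 3 of BB).

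With no library left out, few cell cycle genes were called against BB. Of 30 DNA replication and S-phase genes, 0 were higher and 3 lower, against 15.3% and 12.9% of all genes. Their median was -0.03, with fitted values from -0.21 (Pole, a DNA polymerase subunit) to 0.14. The lower genes were 7 without replicate 4 of P199L-ERG and 5 without replicate 1 of BB. The helicase subunit Mcm5 was at 584, 589, 596 and 564 CPM with P199L-ERG and at 622, 629, 641 and 651 CPM in BB (log2 fold change -0.12, SE 0.03, adjusted p = 0.00192). In WT-ERG cells 17 of the 30 were lower than in the same BB libraries, with a median of -0.14. Of all genes, 29.7% differed between WT-ERG and BB in either direction. The direct test called 9 higher in P199L-ERG than in WT-ERG and 0 lower (background 2.23% and 2.45%). This count rested on single libraries: without replicate 1, 2, 3 or 4 of WT-ERG it was 3, 2, 5 and 11, without replicate 1, 2, 3 or 4 of P199L-ERG it was 13, 7, 5 and 6, and it was 0 when the groups were compared alone. Of 25 mitosis genes, 1 was higher, Cdc20 (0.18, SE 0.04), and 1 lower, Mki67, at 1070, 1000, 916 and 825 CPM against 1180, 1130, 1130 and 1100 CPM (log2 fold change -0.25, SE 0.07, adjusted p = 0.00525). The higher mitosis genes were 4 without replicate 1 of P199L-ERG and 2 without replicate 2, 3 or 4 of P199L-ERG or replicate 1 of BB. Among cyclin-dependent kinase inhibitors Cdkn1a, p21, was higher (0.33, SE 0.06) and Cdkn2c, p18, lower (-0.36, SE 0.05), with 2 lower without replicate 4 of P199L-ERG.

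Of 19 cholesterol synthesis genes, 6 were higher and 1 lower, against 15.3% and 12.9% of all genes (5 and 1 without replicate 4), with a median of 0.12, and fitted values from -0.13 to 0.22. Without replicate 4 of BB 3 were higher, and without replicate 1, 2 or 3 of BB 0 were lower. Cyp51, lanosterol demethylase, was at 167, 173, 164 and 193 CPM with P199L-ERG and at 155, 152, 145 and 149 CPM in BB (log2 fold change 0.22, SE 0.04, adjusted p = 0.000296), and squalene synthase, Fdft1, at 82.2, 90.6, 90 and 86.9 against 75, 75.2, 74.8 and 74.7 CPM (log2 fold change 0.22, SE 0.05, adjusted p = 0.00137). In WT-ERG 0 of the 19 were higher than in BB and 2 lower, where 29.7% of all genes differed in either direction. The direct test called 7 higher in P199L-ERG than in WT-ERG and 0 lower (background 2.23% and 2.45%). Without replicate 1, 2 or 3 of WT-ERG the 7 became 4, 3 and 3, without replicate 2 or 3 of P199L-ERG 4 and 4, and 0 when the groups were compared alone.

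P199L-ERG differed from WT-ERG for 606 genes (4.67%), 289 higher (2.23%) and 317 lower (2.45%), against 3852 (29.7%) that differed between WT-ERG and the same BB libraries. Some of these genes lay beyond BB. Sorl1, a sorting receptor, was at 37.4, 38.5, 32.4 and 27.4 CPM with P199L-ERG, at 8.56, 7.52, 7.93 and 7.12 CPM with WT-ERG and at 23.8, 22.4, 26.6 and 24.6 CPM in BB (log2 fold change 2.12, SE 0.09, adjusted p = 4.72e-15 against WT-ERG; log2 fold change 0.48, SE 0.08, adjusted p = 3.89e-05 against BB). Cysltr1, a receptor of cysteinyl leukotrienes, was at 9.39, 9.29, 9.88 and 8.63, 1.68, 0.789, 1.43 and 2.1 and 5.22, 5.52, 6.4 and 5.28 CPM in the same order (log2 fold change 2.67, SE 0.16, adjusted p = 2.6e-12; log2 fold change 0.73, SE 0.12, adjusted p = 5.87e-05). In both genes the P199L-ERG libraries were the highest and the WT-ERG libraries the lowest of the 3 groups.

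Others lay between WT-ERG and BB. Fgl2, a fibrinogen-like protein, was at 128, 119, 120 and 101 CPM with P199L-ERG, 59, 56.7, 56.1 and 59.7 CPM with WT-ERG and 192, 173, 174 and 172 CPM in BB (log2 fold change 1.01, SE 0.06, adjusted p = 2.01e-12 against WT-ERG; log2 fold change -0.60, SE 0.06, adjusted p = 2.3e-09 against BB). Rhou, an atypical small GTPase, was at 40.3, 41, 41.6 and 39.4, 19.6, 18.6, 19.2 and 16.8 and 54.8, 54.9, 52.6 and 49 CPM (log2 fold change 1.12, SE 0.07, adjusted p = 3.26e-12; log2 fold change -0.38, SE 0.06, adjusted p = 2.86e-05). Fbln1, the matrix protein fibulin 1, was at 15.8, 15.2, 15 and 17.5, 40.1, 41.4, 41.8 and 41.5 and 6.08, 5.59, 6.69 and 5.36 CPM (log2 fold change -1.38, SE 0.07, adjusted p = 1.05e-13; log2 fold change 1.42, SE 0.09, adjusted p = 1.53e-12). For these 3 genes no library of a group entered the range of another group. F13a1 also lay between, higher in P199L-ERG than in WT-ERG (log2 fold change 0.57, SE 0.04, adjusted p = 1.14e-11).

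In Mogat2, a monoacylglycerol acyltransferase, P199L-ERG was lowest, at 13.7, 13.8, 13.4 and 14 CPM against 26.4, 27.9, 26.8 and 31.3 CPM with WT-ERG and 44.8, 46.3, 54.5 and 47.7 CPM in BB (log2 fold change -1.03, SE 0.07, adjusted p = 1.57e-10 against WT-ERG; log2 fold change -1.81, SE 0.07, adjusted p = 2.13e-17 against BB). In Npepl1, an aminopeptidase, WT-ERG at 40, 38.5, 43.9 and 46.3 CPM overlapped BB at 42.3, 40.7, 37.4 and 41.4 CPM and both lay above P199L-ERG at 23.6, 25.4, 26.9 and 26.4 CPM (log2 fold change -0.72, SE 0.06, adjusted p = 6.89e-09; log2 fold change -0.66, SE 0.06, adjusted p = 5.68e-09). Galnt6, which starts O-linked glycosylation, was lower than in WT-ERG (log2 fold change -1.10, SE 0.09, adjusted p = 2.03e-09) and higher than in BB (log2 fold change 0.52, SE 0.11, adjusted p = 0.000434), though its P199L-ERG and BB libraries overlap and it shares exons with an antisense gene.

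The same constructs under BRD3308 gave a separate set of libraries. There 1052 genes were higher in P199L-ERG than in BB (8.12%) and 1142 lower (8.81%). Of the 1981 genes higher in DMSO, 749 were also higher under BRD3308, which is 37.8% of the DMSO genes and 71.2% of those under BRD3308, and of the 1671 lower genes 826 were also lower (49.4% and 72.3%). Among the genes beyond 1 in DMSO, 141 of 189 higher genes (74.6%) and 143 of 172 lower genes (83.1%) were called the same way under BRD3308. Their median log2 fold changes were 1.48 in DMSO and 0.94 under BRD3308 for the higher genes, and -1.43 and -1.05 for the lower genes. Genes were chosen on their DMSO values, and values so chosen tend to be smaller in other libraries. A test of the difference itself passed for 136 genes (1.05%), among them 25 of the 145 named genes. Gata2 was higher by 1.18 in DMSO and by 0.61 under BRD3308 (difference 0.57, SE 0.14, adjusted p = 0.0367). Ighm was at -2.59 and -1.88 (difference -0.72, SE 0.14, adjusted p = 0.00376), and BC100530 at 3.28 and 2.21 (difference 1.07, SE 0.21, adjusted p = 0.00568).

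**Figure D5:**
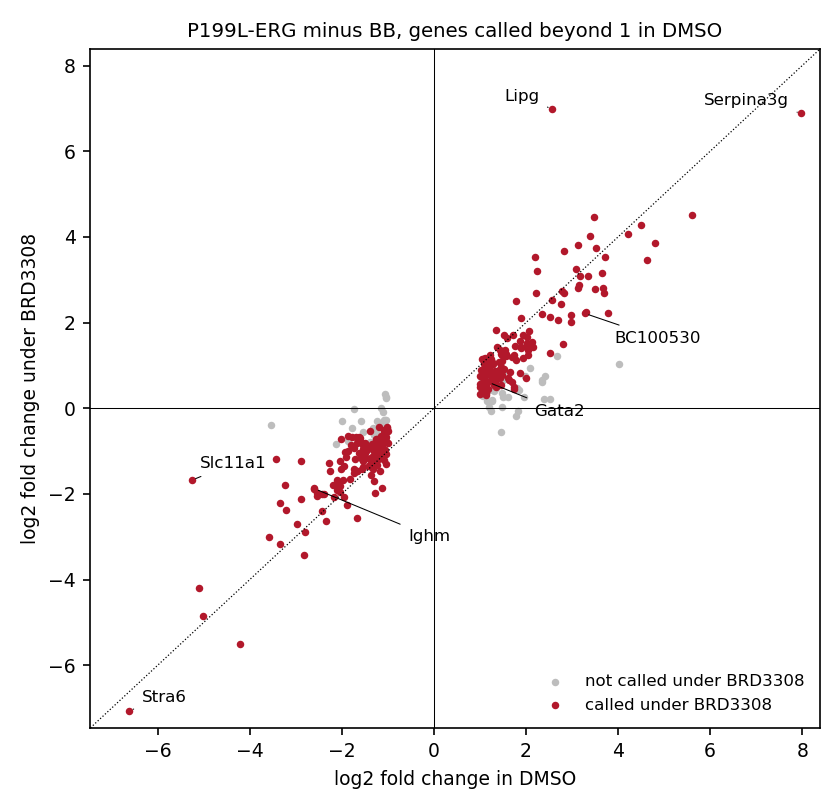
Log2 fold changes of P199L-ERG minus BB under BRD3308 against those in DMSO for the 361 genes called beyond 1 in DMSO, with the line of equality dotted. Red points were also called under BRD3308; Lipg, at few counts in DMSO, lies far above the line, and most others lie between the line and 0.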

How the data were processed

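RNA of ER-Hoxb8 cells was sequenced in 6 groups of 4 libraries, grouped by their labels. The authors trimmed reads, discarded those under 30 bp, aligned the rest to GRCm38 with STAR and counted them per gene with HTSeq; cutadapt and DESeq2 are named in the processing notes, while versions, annotation and strand setting were not given in the sources used here. The deposited values are raw read counts for 53801 genes. Symbols came from GENCODE M21. Genes passing edgeR's filterByExpr (12963) were fitted with edgeR 4.0.16 (R 4.3.3; TMM factors, quasi-likelihood test, two-sided) on all 24 libraries with 1 coefficient per group, and p-values were adjusted over all genes tested (Benjamini-Hochberg, threshold 0.05). SE was taken as the size of the log2 fold change over the root of its F value. Intervals on count ratios cover counting error only, at 95%.

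Members and gene lists were chosen with earlier results of these data known. Named genes were, per direction, the 8 largest fold changes without overlap among genes whose mean log2 CPM reached 2; up to 4 members per list by p and 2 in the other direction; Erg, Gata2, Hoxb8, Hdac3 and Ncor1; genes with at most 3 counts in a group; up to 5 per direction that differed from WT-ERG; and neighbouring runs. Ctss, Stfa2l1, Lipg and the markers of cell types lie outside this rule and were named after their values were seen. Some genes are not reported here. Promoters are RefSeq sequence (GRCm38.p6). Alternatives were RLE factors, no scaling, other filters, DESeq2 1.42.0, limma 3.58.1 (voom), the groups alone, a replicate block, a length covariate, a stricter threshold and leaving out each library. In data simulated for this comparison (12747 genes), 26 of 50 genes changed 1.2-fold, 40 of 50 changed 1.5-fold, 46 of 49 changed 2-fold and 48 of 50 changed 4-fold were found, with 8 unchanged genes among 168 called.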

Additional observations from a re-analysis of the deposited data

Results flagged for a closer look

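A library lay far from the other 3 of its group in 20 of 290 groups of 4 checked (Dixon's test at its 95% critical value), where chance gives about 5%. Many were replicate 4 of P199L-ERG. It was high for Hdac3 at 110 CPM (others 95.4 to 97.4), Gp9 at 5.06 CPM (2.9 to 3.01) and Bst2 at 28 CPM (26.6 to 26.7). It was low for F13a1 at 242 CPM (273 to 279), Fli1 at 102 CPM (129 to 130), Ikzf1 at 318 CPM (341 to 345) and Cebpa at 453 CPM (482 to 485). It was also low for Siglecf at 66.7 CPM (73.8 to 74.8), Csf1r at 21.5 CPM (25.5 to 26.2), Pole at 85.8 CPM (105 to 108) and Mcm2 at 337 CPM (410 to 425).

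Elsewhere in P199L-ERG, Nod1 was at 30.1 CPM in replicate 3 (27.4 to 27.8), and single counts set Stra6 at 0.0643 CPM in replicate 1 and Slc11a1 at 0.0627 CPM in replicate 2, with 0 in the others. In BB, Chn2 was at 9.15 CPM in replicate 3 (8.08 to 8.25), Fgl2 at 192 CPM in replicate 1 (172 to 174), F13a1 at 536 CPM in replicate 3 (510 to 514) and Cxcr2 at 28 CPM in replicate 1 (31.3 to 31.9). Ppp3cc was at 0 CPM in replicate 2 of BB and Il6st at 0 CPM in replicate 4.

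The fitted difference of P199L-ERG from BB differed between DMSO and BRD3308 for 25 of the 145 named genes (edgeR interaction test, adjusted p from 7.98e-08 to 0.0367), most of them chosen for their DMSO values. Differences are DMSO minus BRD3308 on the log2 scale. In 15 genes the value was more positive in DMSO. The difference was 1.09 for Thy1 (1.70 in DMSO, 0.61 under BRD3308), 1.07 for BC100530 (3.28 in DMSO, 2.21 under BRD3308), 0.974 for Galnt6 (0.52 in DMSO, -0.45 under BRD3308) and 0.822 for Itgb7 (0.98 in DMSO, 0.16 under BRD3308). It was 0.81 for Stfa1 (1.66 in DMSO, 0.85 under BRD3308), 0.782 for Adam8 (1.14 in DMSO, 0.36 under BRD3308), 0.665 for Pecam1 (0.94 in DMSO, 0.28 under BRD3308) and 0.614 for Ccr2 (1.31 in DMSO, 0.70 under BRD3308). It was 0.573 for Gata2 (1.18 in DMSO, 0.61 under BRD3308), 0.553 for Nkg7 (1.06 in DMSO, 0.51 under BRD3308), 0.515 for Serpinb10 (0.70 in DMSO, 0.18 under BRD3308) and 0.511 for Cdkn1a (0.33 in DMSO, -0.18 under BRD3308). It was 0.491 for Cd48 (1.89 in DMSO, 1.40 under BRD3308), 0.394 for Ccl9 (0.27 in DMSO, -0.13 under BRD3308) and 0.3 for Siglecf (0.29 in DMSO, -0.01 under BRD3308).

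In the other 10 it was more negative in DMSO. The difference was -0.964 for Gm29233 (-1.63 in DMSO, -0.66 under BRD3308), -0.796 for Cybb (-1.73 in DMSO, -0.94 under BRD3308), -0.717 for Ighm (-2.59 in DMSO, -1.88 under BRD3308) and -0.682 for Prom1 (-1.54 in DMSO, -0.86 under BRD3308). It was -0.584 for Csf2rb2 (-0.68 in DMSO, -0.09 under BRD3308), -0.582 for Igll1 (-1.03 in DMSO, -0.45 under BRD3308), -0.518 for Thbs1 (-1.25 in DMSO, -0.73 under BRD3308) and -0.46 for Adgre1 (-0.99 in DMSO, -0.53 under BRD3308). It was -0.442 for Mpeg1 (-0.81 in DMSO, -0.36 under BRD3308) and -0.348 for F13a1 (-0.95 in DMSO, -0.61 under BRD3308).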

How the results depend on the processing

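Of 2558 alternative values for the 145 named genes, 2438 kept direction and side of the threshold, 111 no longer passed, 9 passed only there (Erg, Hoxb8 and Ncor1, of which Erg and Hoxb8 with the replicate block) and 0 turned direction. Of 1008 alternative counts for lists, 113 differed from the main count by over 1.5 times. The higher genes (1981) were 1043 with the groups compared alone and 1214 at an adjusted p under 0.01, and the lower genes (1671) 1089 at that threshold. The genes beyond 1 (361) were 84 with over 30 reads required in every library compared, and 240 with the groups alone. That read filter left 9884 genes tested and removes genes that are low in either group. Genes beyond 1 were mostly of low level. The genes that differed from WT-ERG (606) were 229 with the groups alone, 1026 with the replicate block, 1486 with the length slope as a covariate and 334 at the stricter threshold; the cause was not tested. Leaving out each library gave 1633 to 2177 higher, 1384 to 1726 lower, 343 to 374 beyond 1, and 419 to 741 that differed from WT-ERG. Same-numbered libraries deviated together with correlations of 0.453, 0.0902, 0.123 and 0.216, and 2 of 4 matched their own number best, so the numbers were not taken as pairs; with the replicate block 2529 genes were higher and 2169 lower. The share of higher genes among those called was 46.6% to 55.8% over the alternatives. Low counts limit the genes under 1 CPM.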

Other observations

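Of 585 processed pseudogenes tested, chosen after their values were seen, 43 were higher in P199L-ERG than in BB and 2 lower (edgeR). Among all genes tested 15.3% were higher and 12.9% lower, so these pseudogenes were called less often in both directions. Without replicate 4 of P199L-ERG 18 were higher and 3 lower. Such copies share sequence with their parent genes, so the division of reads between them is uncertain.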
